A study of Sus scrofa with 35 samples.

Results

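Genes of the neurofilament and of the neuromuscular junction were described in pig longissimus dorsi, a back muscle, at thermoneutrality (TN) and under heat stress (HS). The set held 9 genes: the neurofilament subunits NEFH, NEFM and NEFL, the adhesion molecule NCAM1, the acetylcholine receptor subunits CHRNA1, CHRNB1, CHRND and CHRNE, and the receptor kinase MUSK. Every non-control probe that the scanner files name for one of them was taken, which gave 14 of 60305 probes, for 6 of the 9 genes. No probe was found under the names CHRND, CHRNE and MUSK, and these 3 genes were not analysed here. Of the 14 probes, 12 were among the 41517 kept, which had to exceed background clearly in 75% or more of the arrays of some group. The kept probes were 3 of NEFH, 1 of NEFM, 4 of NEFL, 2 of NCAM1, 1 of CHRNA1 and 1 of CHRNB1. Because the genes were brought together for their difference between HS and TN, that difference is given below as a description without p-values. Where members are counted past the threshold of the fit across all probes, the choice of genes fixed that count in large part, and nothing is read from it.

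The pigs were castrated males of the Creole breed, of the Large White breed or of their F1 cross. Their ages are not in the labels. There were 6 arrays in each of Creole TN, Creole HS, F1 TN, Large White TN and Large White HS and 5 in F1 HS, with 1 muscle sample on each array. HS pigs were held at 32 °C for 5 days per the growth protocol. By the methods, which also give 32 °C, part of them were slaughtered a day earlier, and the labels do not say which. However, the temperature in the labels of HS samples is 30 °C (24 °C for TN). Slaughter of the TN pigs preceded the warming and that of the HS pigs, which lived in separate pens, followed it, so temperature, slaughter day and pen cannot be told apart. The paper reports a lower feed intake under HS, and the HS pigs, slaughtered later in the trial, were older. Feed intake and age therefore cannot be told apart from temperature either. By the methods, littermates were spread over the pens of a breed, and so over both temperatures, but no litter was shared between breeds. Each breed therefore rested on few litters. Kinship is not in the labels, so p-values and intervals, also those between breeds, treat the animals as independent.

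Neurofilaments are the intermediate filaments of the axon, built from a light (NEFL), a medium (NEFM) and a heavy (NEFH) subunit, and they set the calibre of large axons such as those of motor neurons. At the neuromuscular junction, acetylcholine released by the motor axon opens a receptor made of several subunits, of which CHRNA1, CHRNB1, CHRND and CHRNE form the adult type, while CHRNG takes the place of CHRNE in fetal muscle. MUSK is the muscle kinase through which agrin from the nerve gathers these receptors under the terminal. NCAM1 is an adhesion molecule that is restricted to the junction and satellite cells in innervated adult muscle and spreads over the fibre surface on denervation and in regeneration. In whole muscle, fewer cells or axons of a kind and less RNA in each of them cannot be told apart.

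The sequences of 3 probes are shown, because 2 of them carry the name NEFH in the files and behaved differently and the other is the only probe of CHRNA1. Capitals mark the triplet AAG, a lysine codon, and its reverse complement CTT, since the tail of NEFH is rich in lysine.
NEFH A_72_P444295: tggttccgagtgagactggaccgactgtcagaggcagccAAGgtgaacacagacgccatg
NEFH O12714: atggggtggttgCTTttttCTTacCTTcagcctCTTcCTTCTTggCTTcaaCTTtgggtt
CHRNA1 A_72_P443324: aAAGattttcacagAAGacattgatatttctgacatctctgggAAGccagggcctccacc
Probe O12714 held CTT at 8 places and AAG at 0, whereas A_72_P444295 held AAG at 1 place and A_72_P443324 at 3. At least 8 CTT with no AAG occurred in 2 of the 41517 kept probes (0.00482%), and at least 8 AAG with no CTT in 3 (0.00723%). The cut-off of 8 was the count of O12714 itself, so these shares were bound to be small and nothing is read from them. The record that O12714 names is that of the human gene, which was not particular to it. NEFM O2550, NCAM1 O2324 and CHRNB1 O7645 also name human records. No other probe on the array shared a stretch of 16 bases with any NEFH probe on either strand. Among the 9532 probes whose names start with O, as that of O12714 does, 2254 shared such a stretch with a probe of the Agilent porcine set on the same strand and 694 on the opposite strand. CTT without AAG was not particular to O12714: NEFH A_72_P433164 held CTT at 2 places and NCAM1 O2324 at 4, both with AAG at 0. Reading frames without a stop codon numbered 3 for O12714 as printed and 2 for its reverse complement. The strand that O12714 reads was not tested, and these letters do not settle it.

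The share of probes clearly above background ranged over the arrays from 58.4% to 75.9%, with a mean of 68.0% ± 3.3 (SD, n = 18) at TN and 69.5% ± 3.4 (SD, n = 17) under HS. Levels below are log2 of the quantile-normalised intensity, and levels of different probes were not compared. The tissue carried the RNA of muscle fibres on every array: actin (ACTA1) and muscle creatine kinase (CKM) were well above background on all 35 arrays. In the comparison of HS with TN, limma called 16% of the 41517 probes (threshold, adjusted p of 0.05), and 48.2% of the called ones had the higher level in HS. That share was 86.6% after scaling to the spike-in controls, 37.5% after scaling the processed signal to its 75th percentile and 56.7% after median scaling.

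The heavy subunit NEFH had the largest difference of the set. With probe A_72_P433164, Creole TN arrays ran from 5.21 over a median of 6.61 to 9.01, and Creole HS arrays from 8.92 over 9.14 to 9.34. In F1 the TN arrays ran from 5.60 over 7.63 to 9.72, and the 5 HS arrays were at 8.31, 8.85, 9.21, 10.35 and 10.46. In Large White the TN arrays ran from 4.96 over 7.63 to 8.59 and the HS arrays from 7.91 over 8.78 to 10.30. The TN animals were spread widely in each breed, and their upper arrays overlapped with HS in all 3, whereas every one of the 17 HS arrays was above the TN mean of its breed. The HS arrays of Creole lay close together (SD 0.14, n = 6) beside an SD of 1.35 (n = 6) at TN. HS minus TN was 1.91 ± 0.36 (log2, SE), a ratio of 3.76, with breed in the fit.

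The other 2 NEFH probes were apart from each other. With A_72_P444295, HS minus TN was 1.00 ± 0.22 (log2, SE), and again all 17 HS arrays were above the TN mean of their breed. This probe was dim: 10 of 18 TN arrays and 17 of 17 HS arrays had it well above background, against 16 of 18 and 17 of 17 for A_72_P433164. Creole arrays of A_72_P444295 ran from 5.21 over 5.46 to 7.16 at TN and from 6.82 over 7.01 to 7.17 under HS. With O12714, which was well above background on all 35 arrays, HS minus TN was -0.14 ± 0.05 (log2, SE), and 4 of 17 HS arrays were above the TN mean of their breed. It was not past the threshold, but was past it, as lower in HS, with slide as a fixed block (-0.14 ± 0.05) and without any 1 of 6 arrays. All O12714 arrays lay between 6.72 and 7.49, a range far narrower than that of A_72_P433164.

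**Figure D1:**
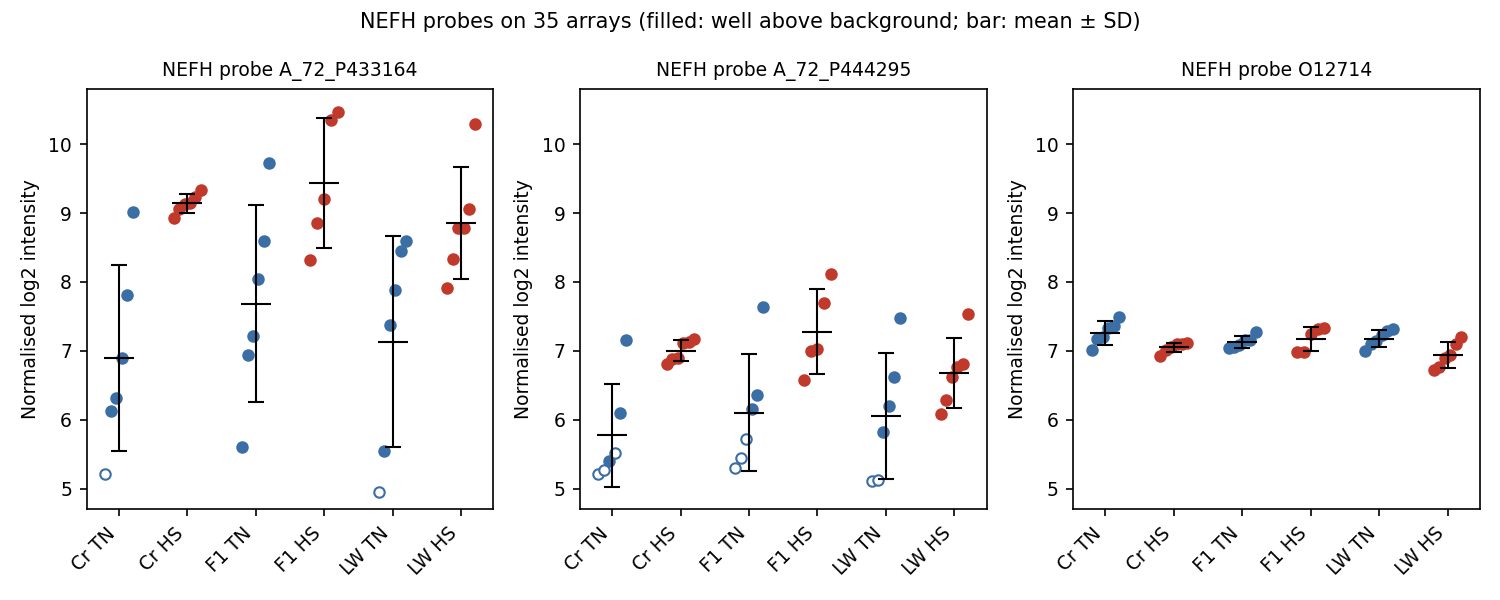
Normalised log2 intensity (y axis) of the 3 NEFH probes on each of 35 arrays in the 6 groups (x axis; Cr, Creole; LW, Large White). Blue points are TN and red points HS, open points were not well above background, and bars are the mean ± SD. With A_72_P433164 and A_72_P444295 the HS arrays sit in the upper part of a wide TN range, and with O12714 all arrays sit between 6.72 and 7.49; levels are not comparable between probes.

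Whether the NEFH probes followed the same animals was tested on the deviation of each array from its group mean, which the choice of genes did not use. However, A_72_P444295 passed the filter on dim probes only through HS groups, and only 10 of 18 TN arrays had it well above background. A_72_P433164 and A_72_P444295 moved together (Pearson r = 0.92, Spearman rho = 0.92, n = 35). The two-sided permutation p was 1e-05 for each, the smallest that 100000 resamples can give, and the adjusted p over the 10 pairs of probes of the same gene was 5e-05. Without the 2 arrays farthest from the median, r was 0.91, and with slide means removed it was 0.95. O12714 gave r = 0.15 with A_72_P433164 (rho = 0.15, permutation p = 0.378 and 0.376, adjusted p = 0.378 and 0.376) and r = 0.25 with A_72_P444295 (rho = 0.25, permutation p = 0.156 and 0.149, adjusted p = 0.173 and 0.166). Without the 2 farthest arrays these values were 0.08 and 0.22, and with slide means removed 0.15 and 0.18.

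**Figure D2:**
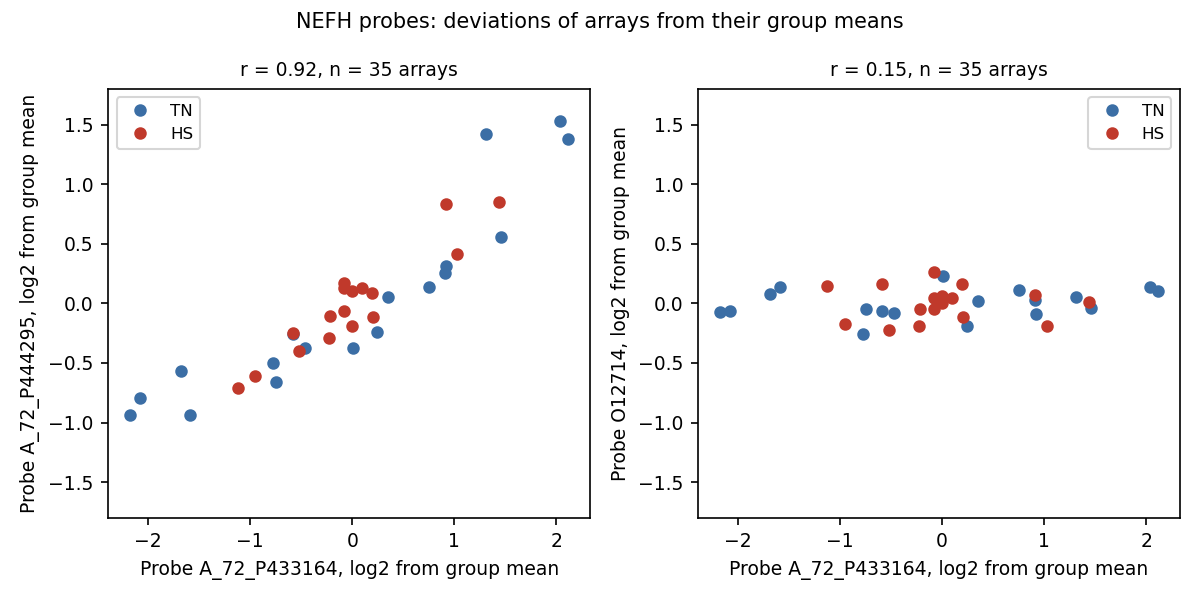
Deviation of each of 35 arrays from its group mean (log2) for NEFH probe A_72_P433164 (x axes) against A_72_P444295 (left) and O12714 (right); blue points are TN and red points HS. The left panel rises along a line (r = 0.92) and the right panel is flat (r = 0.15).

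The medium subunit NEFM was read by probe O2550. Creole arrays ran from 4.89 over 5.81 to 6.54 at TN and from 5.72 over 7.12 to 8.48 under HS. F1 arrays ran from 5.26 over 7.28 to 7.67 at TN, and the 5 HS arrays were at 7.39, 7.86, 7.995, 8.28 and 8.48. Large White arrays ran from 5.01 over 5.86 to 7.02 at TN and from 5.58 over 7.47 to 8.39 under HS. The groups overlapped in every breed, and 15 of 17 HS arrays were above the TN mean of their breed. HS minus TN was 1.35 ± 0.29 (log2, SE), a ratio of 2.54. As with NEFH, fewer TN than HS arrays were well above background (12 of 18 against 17 of 17).

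A further 4 kept probes carry the accession of the record that is porcine NEFM rather than its name, and were outside the rule. Their HS minus TN was 1.00, 1.04, 1.19 and 1.34 (log2). Not all of them are separate in sequence from O2550, since A_72_P577893 shares a stretch of 37 bases with it. Another, A_72_P508636, has the same 60 bases as O2550, so their difference within an array holds the error of both spots together. Over 35 arrays the pair differed by -0.06 ± 0.13 (log2, mean ± SD), and their deviations from the group means gave r = 0.99, as a description.

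The light subunit NEFL was near the detection limit. Probes A_72_P343593 and A_72_P215782 were not well above background on any of 35 arrays, and no difference is given for them. The 4 kept probes were well above background on 33, 34, 31 and 19 arrays (A_72_P564519, A_72_P683949, A_72_P098471 and A_72_P366683), and no kept NEFL probe had a mean above 6.17 over all arrays. Their HS minus TN was 0.21 ± 0.10, 0.03 ± 0.09, 0.15 ± 0.09 and 0.11 ± 0.09 (log2, SE), and none was past the threshold. With A_72_P564519, the TN arrays ran from 5.30 over 6.07 to 6.63 and the HS arrays from 5.67 over 6.22 to 6.87. The 6 pairs of these probes gave r from 0.36 to 0.83 over the 35 deviations. The adjusted permutation p of Pearson's r was between 5e-05 and 0.0382. Spearman's rho was between 0.30 and 0.83, with an adjusted permutation p between 5e-05 and 0.103, the latter for A_72_P683949 with A_72_P366683. Without the 2 farthest arrays r was between 0.24 and 0.84, and with slide means removed between 0.33 and 0.84.

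NCAM1 was read by 2 probes, both well above background on all arrays. With A_72_P117001, Creole arrays ran from 8.27 over 8.92 to 9.16 at TN and from 9.17 over 9.47 to 9.77 under HS. F1 arrays ran from 8.85 over 8.96 to 9.13 at TN, and the HS arrays were at 9.17, 9.45, 9.57, 9.69 and 10.09. Large White arrays ran from 8.72 over 8.94 to 9.59 at TN and from 8.88 over 9.31 to 9.997 under HS. Every HS array was above every TN array in Creole and in F1, by narrow gaps, and the groups overlapped in Large White. Such a complete separation upwards was seen for 0.932% of all kept probes in Creole, 0.783% in F1 and 0.378% in Large White. HS minus TN was 0.52 ± 0.09 (log2, SE), a ratio of 1.44, and 16 of 17 HS arrays were above the TN mean of their breed.

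The second NCAM1 probe, O2324, gave a similar size. HS minus TN was 0.41 ± 0.09 (log2, SE), with 16 of 17 HS arrays above the TN mean of their breed. The separation was complete in F1, as for 0.783% of all kept probes. The TN arrays ran from 6.40 over 6.79 to 7.61 and the HS arrays from 6.79 over 7.22 to 7.71. Deviations of both probes from the group means were correlated (r = 0.65, rho = 0.57, n = 35, permutation p = 6e-05 and 0.00064, adjusted p = 0.0002 and 0.00213). Without the 2 farthest arrays r was 0.49, and with slide means removed 0.81.

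Of the acetylcholine receptor subunits, the ligand-binding alpha subunit CHRNA1 was higher in HS. Creole arrays ran from 6.26 over 7.46 to 8.13 at TN and from 7.03 over 8.18 to 9.31 under HS. F1 arrays ran from 6.41 over 7.51 to 7.89 at TN, and the HS arrays were at 7.93, 8.15, 8.19, 8.77 and 9.02. Large White arrays ran from 6.65 over 7.15 to 7.81 at TN and from 7.17 over 8.14 to 8.44 under HS. The arrays separated completely in F1, as did those of 0.783% of all kept probes, and overlapped in Creole and Large White. Of the 17 HS arrays, 14 were above the TN mean of their breed. The share of all kept probes with such a count was not taken, for CHRNA1 or for the other members. HS minus TN was 0.88 ± 0.20 (log2, SE), a ratio of 1.84.

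The beta subunit CHRNB1 did not share this. Its TN arrays ran from 6.87 over 7.46 to 7.80 and its HS arrays from 6.96 over 7.26 to 7.62, so that the groups overlapped almost wholly. HS minus TN was -0.10 ± 0.07 (log2, SE), and 5 of 17 HS arrays were above the TN mean of their breed. The sign turned to 0.01 ± 0.08 after scaling to the spike-in controls.

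**Figure D3:**
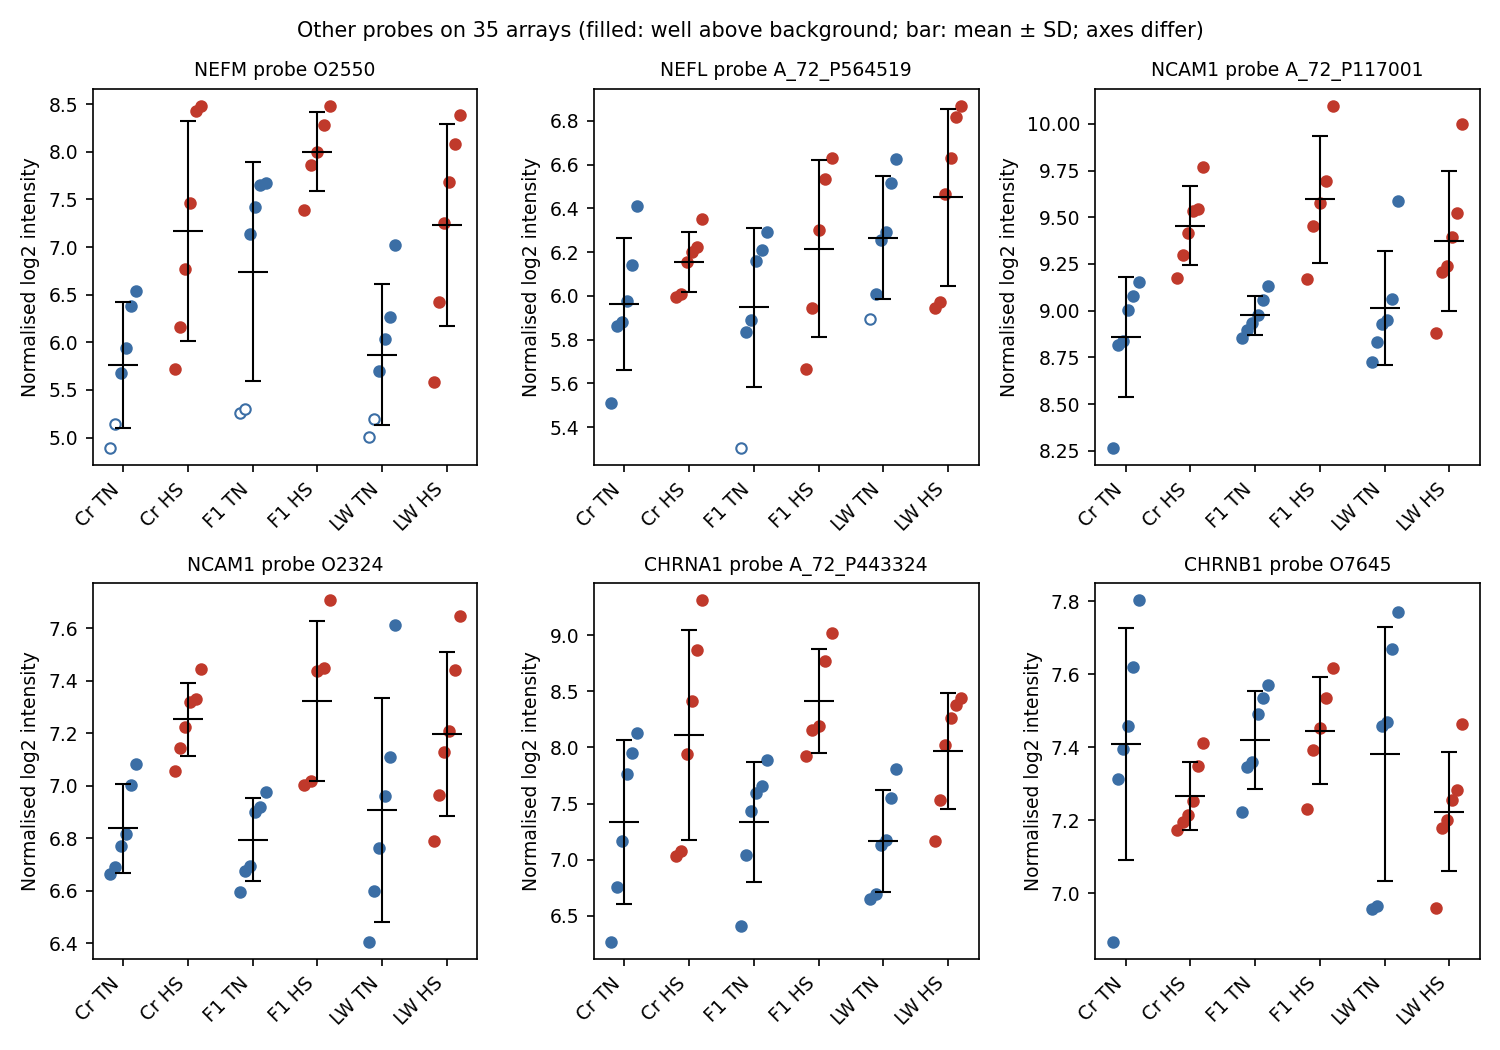
Normalised log2 intensity (y axes, which differ between panels) of the probe of NEFM, the brightest probe of NEFL, both probes of NCAM1 and the probes of CHRNA1 and CHRNB1 on each of 35 arrays in the 6 groups (x axis). Blue points are TN and red points HS, open points were not well above background, and bars are the mean ± SD. NCAM1 A_72_P117001 separates completely in Creole and F1, CHRNA1 in F1, and CHRNB1 overlaps in every breed.

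Counted together, 6 of the 12 kept probes were past the threshold in HS minus TN, and all 6 were higher: 2 of NEFH, that of NEFM, both of NCAM1 and that of CHRNA1. Over all kept probes 16% were past it and 7.73% were past it and higher, and the median difference was -0.02 over all kept probes and 0.31 over the 12. With slide as a fixed block there were 7, NEFH O12714 being lower. NEFH A_72_P444295 and NEFM passed the filter on dim probes only through HS groups, where they were high, since neither was well above background on more than 4 of 6 arrays of any TN group. The set was chosen on this contrast, so the count describes the choice. With a group mean for each breed and temperature, the differences of the 3 breeds stood side by side as follows. NEFH A_72_P433164 gave 2.24 in Creole, 1.75 in F1 and 1.72 in Large White (SE 0.63, 0.66 and 0.63). NEFM gave 1.41, 1.26 and 1.36, and CHRNA1 0.77, 1.08 and 0.80, in the same order. NCAM1 A_72_P117001 in Creole, at 0.60 ± 0.16 (SE), was the only member past the threshold within a breed, where 1.91% of all kept probes were past it in Creole and 0.00482% in each of F1 and Large White.

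Arrays lay on 5 slides, of which slides 1 to 4 held TN and HS arrays of all 3 breeds. Slide 5 held 2 Large White TN arrays and 1 Creole HS array, so temperature and breed cannot be told apart there. Within a slide, HS minus TN of NEFH A_72_P433164 was 1.29, 1.11, 3.51, 1.55 and 2.07 on slides 1 to 5. For NEFM the values were 1.42, 1.78, 1.47, 0.55 and 1.04, and for CHRNA1 0.96, 0.85, 1.25, 0.28 and 1.03. The 6 probes past the threshold were higher in HS on all 5 slides. They were picked for that sign over these same arrays, so the slides are a description and nothing is read from them. The values of the dim probes moved with the signal used. With the background-subtracted processed signal scaled to its 75th percentile, HS minus TN was 2.53 for NEFH A_72_P433164, 1.95 for A_72_P444295 and 2.24 for NEFM, and after the normexp correction with its offset it was 1.67, 0.72 and 1.02.

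**Figure D4:**
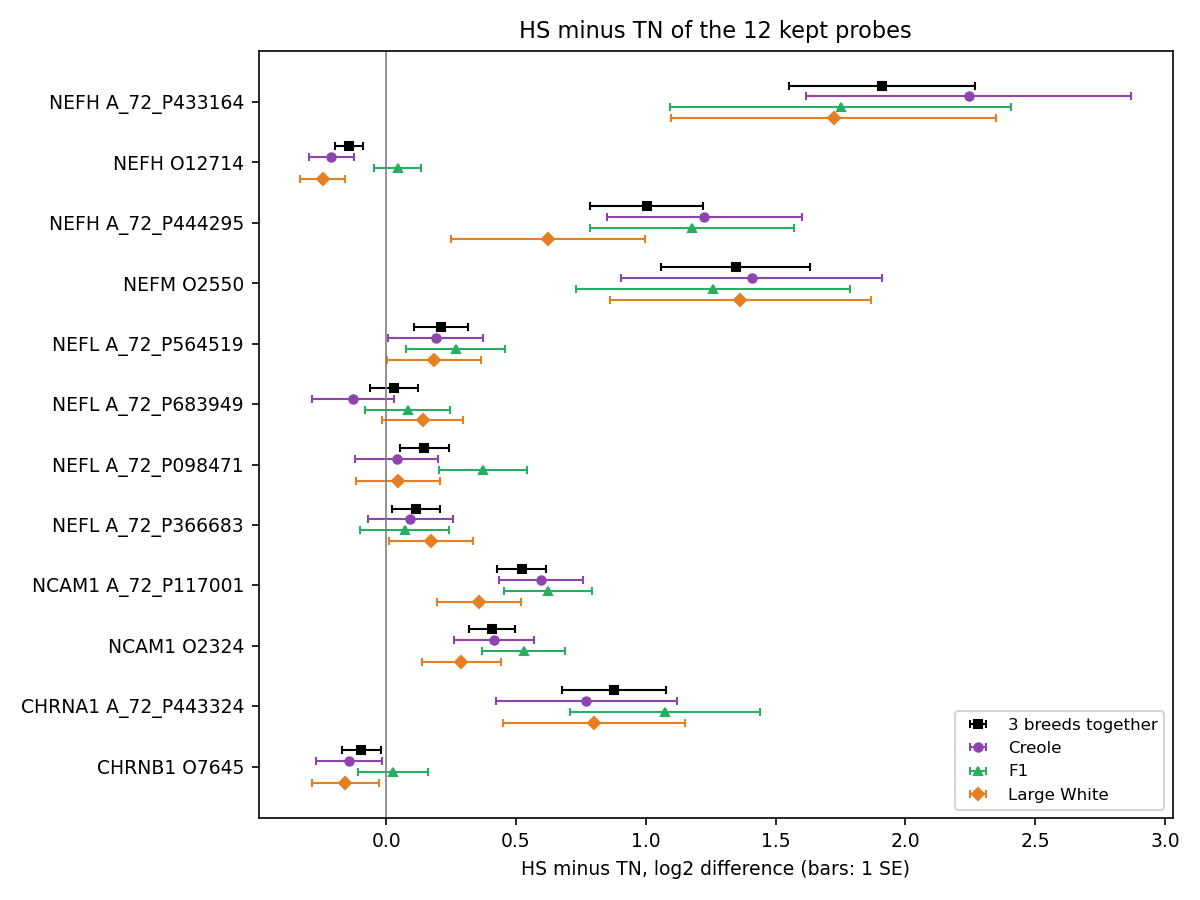
HS minus TN (x axis, log2 difference; bars are 1 SE) of the 12 kept probes (y axis), for the 3 breeds together (black squares) and within Creole (purple), F1 (green) and Large White (orange). NEFH A_72_P433164 and A_72_P444295, NEFM, NCAM1 and CHRNA1 lie right of 0 in every breed, and NEFH O12714, NEFL and CHRNB1 lie between -0.24 and 0.37.

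Differences between breeds were not used to choose the genes and were tested. None of the 12 probes was past the threshold (limma, adjusted p below 0.05) in Creole minus Large White, F1 minus Large White or F1 minus Creole, where 3.64%, 0.525% and 0.477% of all kept probes were. At an unadjusted p below 0.05 there was 1, 2 and 1 of the 12 probes, where 15.4%, 10.5% and 8.88% of all kept probes were. These 3 comparisons share arrays and are not independent of each other. NEFL A_72_P366683, one of the 12, passed the filter on dim probes only through Large White groups. It was well above background on 10 of 12 Large White, 5 of 12 Creole and 4 of 11 F1 arrays. No litter was shared between breeds, so breed and litter cannot be told apart here, and p-values and intervals leave litter out.

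NEFM had the largest breed difference. With O2550 it was 0.91 higher in F1 than in Creole (log2, 95% confidence interval 0.19 to 1.63, limma adjusted p = 0.356) and 0.82 higher than in Large White (0.10 to 1.54, adjusted p = 0.387). Creole and Large White differed by -0.09 (-0.79 to 0.62, adjusted p = 0.948). In order of their means, NEFM stood at 6.47 ± 1.16 in Creole (SD, n = 12) and 6.55 ± 1.13 in Large White (SD, n = 12). In F1 it stood at 7.31 ± 1.08 (SD, n = 11). These SDs hold TN and HS arrays together and do not measure the uncertainty of a difference between breeds. NEFL A_72_P564519 was lower than in Large White by 0.30 in Creole and by 0.28 in F1, with limma adjusted p of 0.218 and 0.436. NEFH A_72_P433164 differed by 0.02 in Creole minus Large White (-0.86 to 0.90, limma adjusted p = 0.989), by 0.57 in F1 minus Large White (-0.33 to 1.47, adjusted p = 0.720) and by 0.55 in F1 minus Creole (-0.35 to 1.45, adjusted p = 0.843). Without F1 TN replicate 1, F1 minus Large White was 0.36 and F1 minus Creole 0.34. For CHRNA1 the differences were 0.15, 0.30 and 0.14 in the same order, for CHRNB1 0.04, 0.13 and 0.09, and for NCAM1 A_72_P117001 -0.04, 0.09 and 0.12. The limma adjusted p of these 9 values lay between 0.698 and 0.956. The intervals of F1 minus Large White and F1 minus Creole reached beyond 1 on the log2 scale for NEFH A_72_P433164 and NEFM, whereas those of NCAM1 A_72_P117001 and CHRNB1 went no higher than 0.36 and no lower than -0.27.

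**Figure D5:**
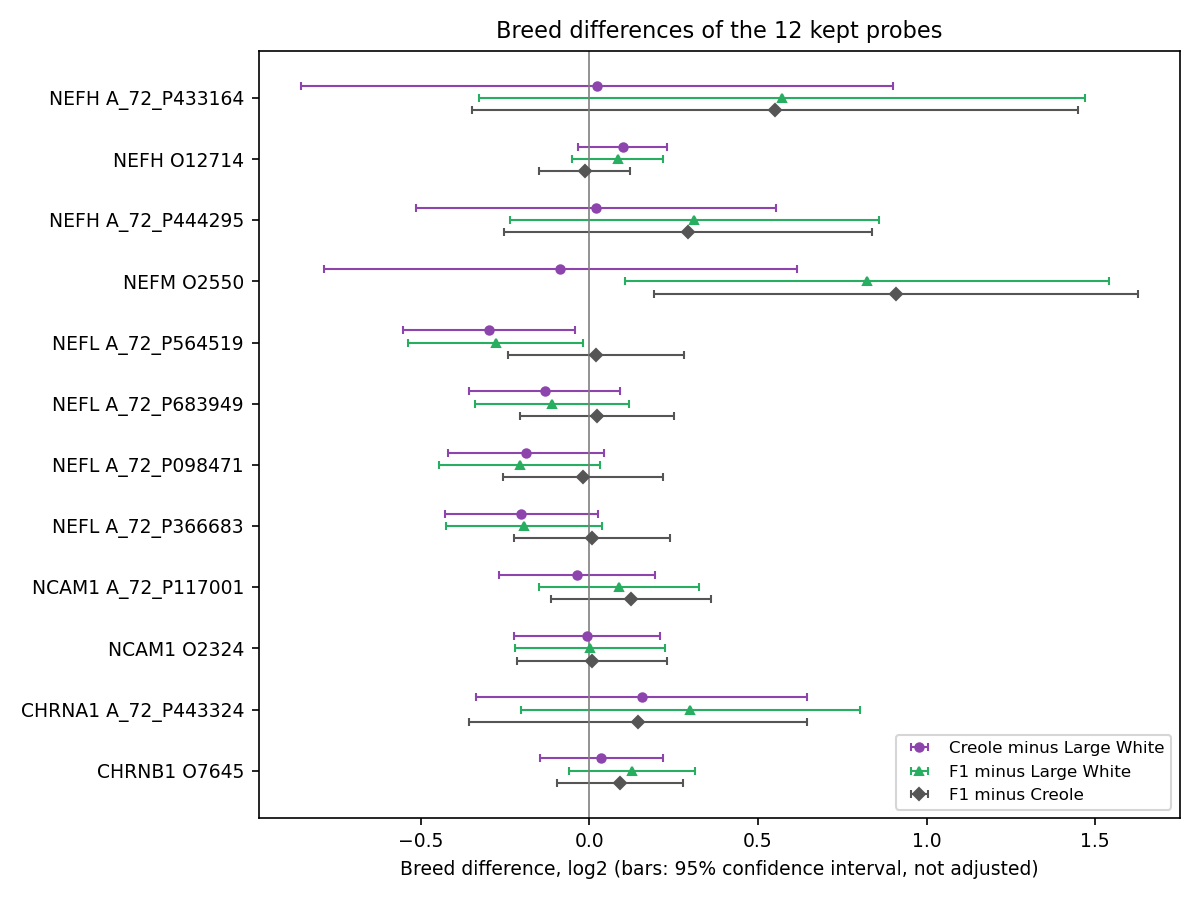
Difference between breeds (x axis, log2; bars are 95% confidence intervals, not adjusted for the number of probes) of the 12 kept probes (y axis) for Creole minus Large White (purple), F1 minus Large White (green) and F1 minus Creole (grey). Intervals are widest for NEFH A_72_P433164 and NEFM, and none of these differences was past the threshold.

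The interaction asked whether HS minus TN differed between breeds. No member passed it, with limma adjusted p between 0.963 and 0.997, and neither did any of the 41517 probes (0%), of which 1593 had an unadjusted p below 0.05. The smallest unadjusted p of a member was 0.0569, for NEFH O12714, whose HS minus TN was -0.21 in Creole, 0.04 in F1 and -0.24 in Large White. NEFH entered the set in part for one direction in all breeds, so its interaction is not an independent value.

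Some of the members varied together between animals of the same group. The permutations exchanged arrays over all groups, whose spreads differed. For NEFH A_72_P433164 the SD was 1.35 in Creole TN and 0.14 in Creole HS, so the permutation p-values are approximate. The NEFM probe passed the filter on dim probes only through HS groups, and only 12 of 18 TN arrays had it well above background. With the brightest probe of each of the 6 genes there were 15 pairs, of which 6 had an adjusted permutation p below 0.05 for Pearson's r. The share of all pairs of kept probes with such an r was not taken, so nothing is read from this count about the set. NEFM and CHRNA1 were the closest (r = 0.74, rho = 0.69, n = 35, permutation p = 1e-05 for each, adjusted p = 0.00015), and r was 0.70 without the 2 farthest arrays, 0.79 with slide means removed, 0.76 over the 18 TN arrays and 0.73 over the 17 HS arrays. NEFH went with NEFL (r = 0.62, rho = 0.59, permutation p = 9e-05 and 0.00018, adjusted p = 0.000675 and 0.0009) and with NCAM1 (r = 0.58, rho = 0.63, permutation p = 0.00029 and 5e-05, adjusted p = 0.00145 and 0.000375). It went also with CHRNA1 (r = 0.55, rho = 0.59, permutation p = 0.00048 and 0.00025, adjusted p = 0.0018 and 0.000938) and NEFM (r = 0.50, rho = 0.48, permutation p = 0.00262 and 0.00427, adjusted p = 0.00786 and 0.0128). Without the 2 farthest arrays these 4 values of r were 0.55, 0.54, 0.52 and 0.46, and with slide means removed 0.62, 0.73, 0.53 and 0.52. For CHRNA1 and NEFM the r with NEFH came mostly from the TN arrays: it was 0.79 and 0.71 over the 18 TN arrays and 0.25 and 0.18 over the 17 HS arrays, a difference that was not tested. NEFL with CHRNA1 was the last pair (r = 0.41, rho = 0.44, permutation p = 0.0152 and 0.00778, adjusted p = 0.0381 and 0.0195), with r = 0.33 without the 2 farthest arrays and 0.39 with slide means removed. CHRNB1 was in none of the 6 pairs, and NCAM1 was in 1, that with NEFH.

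The genes most like NEFH over the 35 deviations from group means were found among 9756 genes and are given as a description. For A_72_P433164 they were UCHL1, a ubiquitin hydrolase abundant in neurons (r = 0.91), the secreted chaperone CLU (0.89), the cytokine IL18 (0.86), the microtubule-associated MAP1A (0.84) and LOC100515837 (0.82). For A_72_P444295 they were UCHL1 (0.86), CLU (0.80), NECAB3 (0.80), ISYNA1 (0.79) and MAP1A (0.78), so 3 of 5 genes were shared by these probes. For O12714 they were PRMT6 (0.68), SH3RF2 (0.66), PAQR9 (0.66), ARNT2 (0.64) and POMT2 (0.64), with none shared. For CHRNA1 they were DCLK1 (0.89), the embryonic myosin heavy chain MYH3 (0.87), TJP3 (0.87), C2H11ORF94 (0.85) and the cardiac troponin TNNT2 (0.84). All arrays of a group share their normalisation, and these values were the highest of many.

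Other genes of the junction did not move as a group. Of 20 listed, 14 had a kept probe, the median HS minus TN was -0.03, as against -0.02 over all kept probes, and 1 was past the threshold and higher and 2 lower. The one that was higher was the fetal receptor subunit CHRNG, with 0.75 ± 0.17 (log2, SE) and well above background on 34 arrays. Those lower were the neuregulin receptor ERBB3 (-0.24 ± 0.08) and the adaptor CRKL (-0.14 ± 0.05), while the synaptic laminin LAMB2 gave -0.32 ± 0.14 and was not past it. ERBB3 and LAMB2 are with CHRNG the 3 largest differences of the list. Rapsyn (RAPSN), which anchors the receptor, gave 0.01 ± 0.06, and LRP4, the agrin receptor, 0.22 ± 0.14.

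Of 7 other intermediate filament genes, 6 were kept, with a median HS minus TN of 0.23, and 3 were past the threshold and higher. These were nestin (NES, 0.90 ± 0.12), a filament of immature fibres and of the junction, vimentin (VIM, 0.72 ± 0.22), a filament of mesenchymal cells and leukocytes, and desmin (DES, 0.24 ± 0.05), the filament of muscle fibres. Of 13 axon and nerve terminal genes 7 had a kept probe, with a median of 0.06, and UCHL1 (1.05 ± 0.19) was past the threshold. THY1 (0.37 ± 0.13) and GAP43 (0.12 ± 0.07), which followed it in size, were not. The terminal genes CHAT, SNAP25 and SYT1 had probes, and none was kept.

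Schwann cell genes had 11 of 14 kept and a median of -0.04, with 1 past the threshold and higher, the neurotrophin receptor NGFR (0.49 ± 0.16), and 1 lower, CNP (-0.19 ± 0.05). PMP22, next in size, gave -0.14 ± 0.09. The myelin gene MBP gave -0.05 ± 0.11. Denervation-responsive genes had 6 of 12 kept and a median of 0.06. Of these CHRNG and the myogenic factor MYOG (0.31 ± 0.09) were past the threshold and higher, and PLAU gave 0.12 ± 0.23. HDAC4 and RUNX1, which belong to that response, were not analysed here.

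Satellite cell and regeneration genes had 6 of 9 kept, with a median of 0.13. MYH3 (1.805 ± 0.507) and MYOG were past the threshold and higher, the satellite cell factor PAX7 (-0.30 ± 0.07) was past it and lower, and the cell cycle inhibitor CDKN1A gave 0.31 ± 0.12. Of 10 leukocyte genes 9 were kept, each well above background on at least 34 arrays, with a median of 0.74, and 5 were past the threshold and higher. The largest were lysozyme (LYZ, 2.26 ± 0.51), TYROBP (0.98 ± 0.28) and CSF1R (0.93 ± 0.22), while the pan-leukocyte PTPRC gave -0.02 ± 0.07. Their mean level ran from 8.20 to 10.64 in Creole TN, 9.39 to 11.08 in F1 TN and 8.83 to 11.03 in Large White TN. Under HS it ran from 10.03 to 11.52, 9.96 to 10.96 and 9.65 to 11.46 in the same order. The mean level of the regeneration genes ran from 9.91 to 10.96, from 9.97 to 10.91 and from 9.94 to 10.798 at TN, and from 10.04 to 11.25, from 10.97 to 11.09 and from 10.13 to 10.98 under HS, in the same order. The part of these leukocyte and regeneration genes in the differences of NEFH, NEFM, NCAM1 and CHRNA1 was not tested. Muscle fibre genes had 10 of 10 kept and a median of -0.05, with 3 past the threshold and lower: TTN (-0.37 ± 0.11), MYH2 (-0.21 ± 0.06) and TNNI2 (-0.15 ± 0.05). TNNT3, second in size, gave -0.23 ± 0.10. No gene of these lists was past the threshold in any of the 3 breed comparisons, the lowest limma adjusted p being 0.0839, for TNNT3 in Creole minus Large White.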

How the data were processed

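RNA of 35 muscle samples was labelled with Cy3 and hybridised to 1-colour Agilent porcine arrays by the authors. The deposited scanner files, made with Agilent Feature Extraction (10.10.1.1 per the submitters' processing notes), hold each spot's intensity on a linear scale. The deposited value table holds log2 values of 40649 probes, which the authors quantile-normalised and filtered for expressed probes. It was used as an alternative and holds 11 of the 14 probes. All 35 columns matched the array of the same sample best (lowest r 0.999978).

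Here the median pixel intensity of non-control spots was quantile-normalised, log2 was taken, and 105 spots with an outlier flag were set to missing. No local background was subtracted. The filter kept probes that exceeded background, by the scanner's own call, in 75% or more of the arrays of any group. Symbols came from the gene name in the files, then from the accession in the RefSeq and gene name tables (Sscrofa11.1, names only). Of 60305 probes 24360 had a symbol, and no genome position is given.

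limma 3.58.1 (R 4.3.3) was fitted to all 41517 kept probes with Benjamini-Hochberg adjustment at 0.05: an additive model of breed and temperature, and a model with 1 mean per group for differences within a breed and the interaction. These steps were tested on simulated data. The study's model had random terms for pen, slaughter day and parents, which could not be fitted from the labels. Correlations used deviations from group means and 100000 permutations (numpy 2.4.6, scipy 1.17.1). These permutations exchanged arrays over all groups, so unequal spreads of the groups make every permutation p approximate. Those between different genes were added after values were seen. The number of arrays limits the precision, and nothing in the files says that samples were taken more than once from an animal.

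The genes and the lists (other neuromuscular junction, other intermediate filament, axon and nerve terminal, Schwann cell, denervation-responsive, satellite cell and regeneration, leukocyte and skeletal muscle fibre genes) were chosen with earlier results of these data known. Each list took 1 probe a gene, the kept one with the highest mean. Named were all probes of the set, the 3 genes of each other list with the largest HS minus TN and any called between breeds, and the 5 genes most alike to each NEFH probe and to CHRNA1. Genes named beyond this rule (ACTA1, CKM, RAPSN, LRP4, CRKL, MBP, PAX7, PTPRC, TNNI2 and those without a kept probe) were chosen after their values were seen. Alternatives covered 3 scalings, normexp correction, the deposited table, 2 filters, slide as a fixed or random block, array weights, the model terms, TN arrays alone, and each array left out.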

Additional observations from a re-analysis of the deposited data

Results flagged for a closer look

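One value stood apart in its group. With NEFL probe A_72_P366683, Creole HS replicate 3 was at 6.05 and the nearest of the other 5 arrays at 5.62 (log2), a gap of 0.682 of the range of the group. This was 1 of 72 combinations of probe and group, of which chance gives about 3.6.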

How the results depend on the processing

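The count of members past the threshold in HS minus TN was 6 or 7 under 12 alternatives and 6 to 7 with each of 35 arrays left out. The genes were chosen on this contrast, so these counts say nothing of its stability. The added one was NEFH O12714, past it in 7 settings: with slide as a fixed block and without F1 HS 1, 2 or 3, F1 TN 2, Creole TN 5 or Large White HS 1. HS minus TN of NEFH A_72_P444295 was 1.95 with 75th percentile scaling of the processed signal, against 1.00; the cause was not tested. With an array left out, it was 0.94 to 1.11 there, 1.78 to 2.04 for A_72_P433164 and -0.16 to -0.13 for O12714. CHRNB1 turned to 0.01 after spike-in scaling, and NEFL A_72_P683949 to -0.05 with 75th percentile scaling and to -0.01 without F1 HS replicate 3. The counts in the 3 breed comparisons and in the interaction were 0 under every alternative run. Breed differences changed sign in 15 of 216 alternatives and 23 of 630 fits without an array, with a lowest adjusted p of 0.124 and 0.1196. For Creole minus Large White, NEFH A_72_P433164 turned to -0.032 (75th percentile), -0.024 (median), -0.052 (spike-in), -0.011 (normexp) and -0.24 (TN arrays only), CHRNB1 to -0.0067 (spike-in) and -0.024 (array weights), NCAM1 A_72_P117001 to 0.0099 (slide as a fixed block) and 0.050 (array weights), and NEFM to 0.057 (array weights). NCAM1 A_72_P117001 in F1 minus Large White turned to -0.034 (spike-in) and -0.040 (TN arrays only), and NEFL A_72_P564519 in F1 minus Creole to -0.048 (75th percentile), -0.0070 (array weights) and -0.016 (TN arrays only). With an array left out, Creole minus Large White was -0.17 to 0.19 for NEFH A_72_P433164, -0.0041 to 0.084 for CHRNB1, -0.090 to 0.026 for NCAM1 A_72_P117001 and -0.24 to 0.047 for NEFM, and F1 minus Creole was -0.028 to 0.087 for NEFL A_72_P564519. NEFH A_72_P433164 ran from 0.36 to 0.77 in F1 minus Large White and from 0.34 to 0.75 in F1 minus Creole, and CHRNA1 from 0.047 to 0.26 in Creole minus Large White.

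No paired analysis was possible because replicate numbers were given in accession order and pair no samples. Signal over background limits NEFL, NEFM and NEFH A_72_P444295, each of which had arrays not well above background. Temperature cannot be told apart from slaughter day, pen, feed intake and age.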
